A study of Mus musculus with 9 samples.

Results

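The genes described here are 10 components of transforming growth factor beta (TGF-β) supply and of the elastic fibre, taken from the deposited count table by gene symbol. They are the ligands Tgfb1, Tgfb2 and Tgfb3, the latent TGF-β binding proteins Ltbp1, Ltbp2, Ltbp3 and Ltbp4, the microfibril protein Fbn1, the elastin gene Eln and the pseudoreceptor Bambi. All 10 were found among the 22036 annotated genes, and all 10 were among the 14160 genes tested. RNA was sequenced from left ventricular tissue of wild-type mice in 3 groups of 3 libraries. The group ND AAV-CON combined a control adeno-associated virus (AAV) with what is taken to be normal diet (ND). In HFD AAV-CON the same control virus was combined with what is taken to be high-fat diet (HFD). In HFD AAV-BCKDK the virus carried the name of BCKDK, a mitochondrial kinase that restrains branched-chain amino acid oxidation, and the diet was HFD. Every group therefore carried a vector. The sources used here do not give strain, sex, age, diet composition, vector dose or the promoter of the vector.

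TGF-β ligands are made as precursors whose propeptide stays wrapped around the growth factor and keeps it inactive. In most cells the propeptide is bound by a latent TGF-β binding protein, which tethers the complex to fibrillin microfibrils until integrins, proteases or matrix proteins release the ligand. The same microfibrils, built from fibrillin-1, are the scaffold on which elastin is laid down, so storage of the ligand and assembly of the elastic fibre share one structure. In the heart, active TGF-β acts on fibroblasts and is known for driving collagen synthesis and scar formation.

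Each library held 32803233 to 45483044 counts in annotated genes. Levels are given in CPM, which are counts relative to a library size scaled with TMM factors that align the typical gene between libraries. Bckdk itself was higher in HFD AAV-BCKDK than in HFD AAV-CON with a log2 change of 1.24 (SE 0.17, adjusted p = 0.0016), without overlap. The HFD AAV-CON libraries stood apart from the other groups and from each other, with mitochondrially encoded transcripts at 26.1%, 39.9% and 33.2% of annotated counts in replicates 1, 2 and 3. HFD AAV-CON replicate 3 lay between the other libraries of its group for 64.1% of the tested genes, against 14.8% to 37.1% for the other 8 libraries. For 9 of the 10 genes described here it also lay between them. The chi-square per degree of freedom of the counts was 261 between replicates 1 and 2, 63.6 between 1 and 3 and 73.9 between 2 and 3. Whether replicate 3 is a library independent of the other 2 was not tested. The counts of the 10 genes and of the pathway lists are therefore also given without it. Replicates are separate samples by the labels, and p-values measure the spread between them. The spread of each gene was estimated over all 9 libraries. In the comparison of HFD AAV-BCKDK with ND AAV-CON it therefore includes that of HFD AAV-CON, and a large p there does not measure those 2 groups alone. With only those 2 groups fitted, 873 genes were called instead of 347, and 1 of the 10 genes described here in either fit. Tissue RNA does not tell more cells of a type from more RNA per cell.

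Under the high-fat diet with the control vector, 8 of the 10 genes were higher and none was lower at an adjusted p under 0.05 (edgeR quasi-likelihood test). Over all genes tested, 22.7% were called higher, 20.6% lower and 43.3% in either direction. The HFD AAV-CON libraries were all above the ND AAV-CON libraries for 8 genes (those called, with Ltbp4 in place of Eln) and below them for none, where 28.2% of all genes tested were without overlap higher, 27.1% lower and 55.3% either way. The median change of the 10 genes was 0.89 on the log2 scale, and that of all genes tested was -0.0018. With the BCKDK vector under the same diet, 6 of the 10 were lower than in HFD AAV-CON and none was higher, where 20.9% of all genes tested were called lower, 17.3% higher and 38.2% in either direction. Without overlap, 7 were lower and none was higher, against 27.3% lower, 24.0% higher and 51.2% either way over all genes tested. Their median was -0.84 against -0.010 over all genes. Between HFD AAV-BCKDK and ND AAV-CON, which differ in diet and vector together, Bambi alone was called, and it was higher. Over all genes tested 1.18% were called higher, 1.27% lower and 2.45% in either direction there. Tgfb2 and Bambi were higher without overlap and Ltbp1 and Ltbp3 lower, against 12.6% higher, 15.1% lower and 27.7% either way over all genes tested. Without HFD AAV-CON replicate 3 the counts were 7, 6 and 1, Eln being the gene no longer called under the diet. The comparisons share libraries, so each gene's values are given side by side and not as separate evidence.

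**Figure D1:**
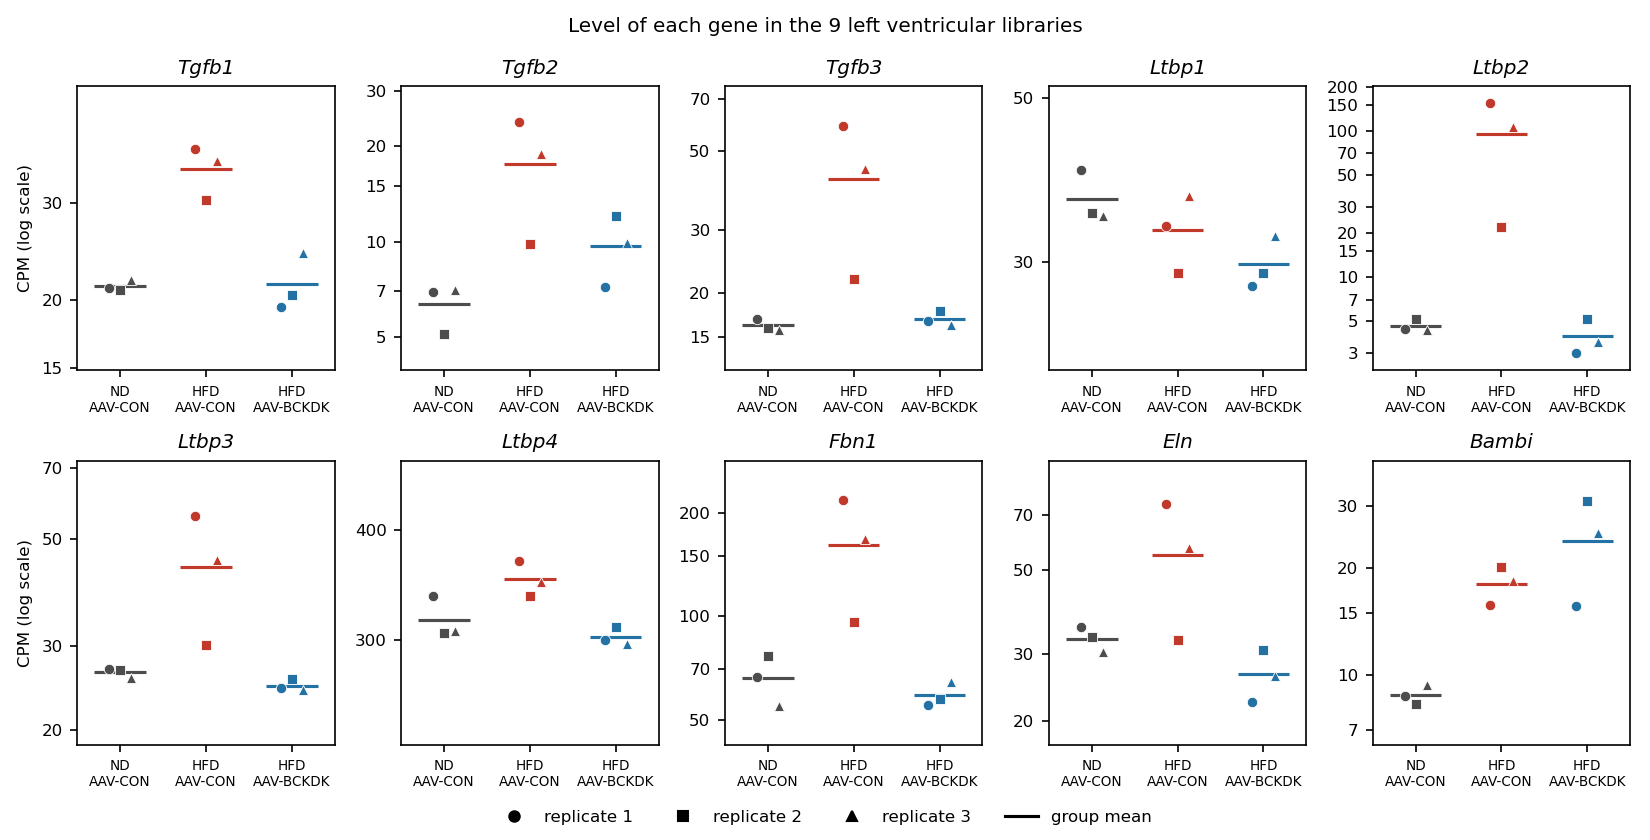
Level of each of the 10 genes in every library, in CPM on a log axis, with 1 symbol per replicate and a line at the group mean. Ltbp2 sits between 22.1 and 156 CPM in HFD AAV-CON and between 3.00 and 5.16 CPM in the other libraries, whereas Bambi stays at 15.6 to 30.9 CPM in HFD AAV-BCKDK.

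**Figure D2:**
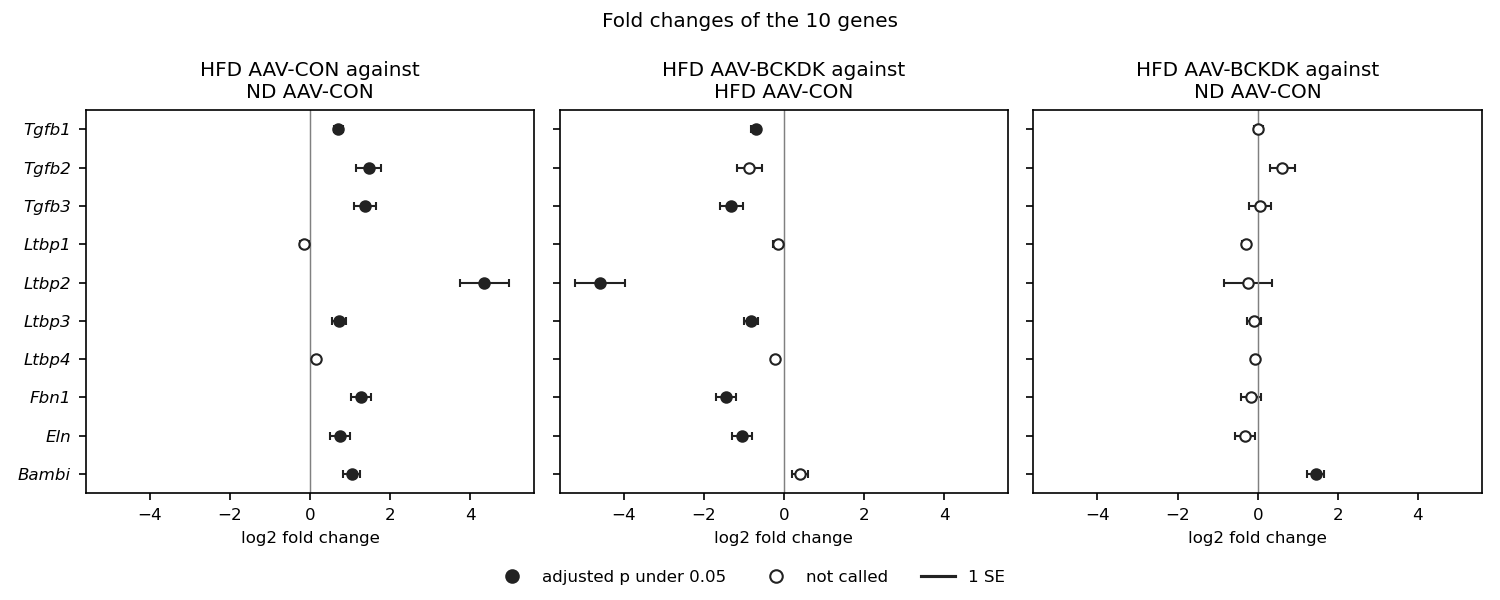
Fitted log2 fold change of each gene in the 3 comparisons, with bars of 1 standard error and filled symbols for an adjusted p under 0.05. The fitted change of Ltbp2 is 4.36 under the diet and -4.60 with the vector, and Bambi is the only filled symbol in the comparison of HFD AAV-BCKDK with ND AAV-CON.

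Per kilobase of annotated exon, Ltbp4 was by far the most abundant of the 10 transcripts in ND AAV-CON, at 49.0 ± 2.70 CPM per kb (SD, n = 3). Fbn1 followed at 5.46 ± 0.90 CPM per kb and Tgfb3 at 4.78 ± 0.19, and the ranges of these 2 overlapped. Tgfb1 at 4.20 ± 0.094 and Eln at 4.07 ± 0.31 CPM per kb overlapped as well. Below them lay Ltbp1 at 3.41, Ltbp3 at 2.91, Bambi at 1.73, Tgfb2 at 1.10 and Ltbp2 at 0.57 CPM per kb, each clear of the gene above it. In HFD AAV-CON the level of Ltbp2 was 11.6 ± 8.26 CPM per kb, in the fourth place, and every gene below Ltbp4 and Fbn1 overlapped its neighbour. In HFD AAV-BCKDK, Ltbp2 was again the lowest at 0.48 ± 0.14 CPM per kb, and Bambi stood in the fourth place at 4.71 ± 1.52. Exon length was taken over all annotated transcripts of a gene. Tgfb3 and Bambi have 1 annotated transcript each and the other genes 3 to 12, so the levels of the other genes are lowered relative to these by the pooled length.

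The upstream sequences of Ltbp2 and Tgfb2 are shown because these were the binding protein and the ligand with the largest fitted changes under the diet. RefSeq tables on GRCm38.p6 held a promoter for 7 of the 10 genes. Those of Tgfb3, Eln and Bambi are not used here. Each sequence is the 250 bases before the start of the RefSeq entry, written 5′ to 3′ on the gene's strand, and capitals mark any match to a searched motif. The motifs were CAGAC, the core of the SMAD-binding box, the AP-1 element TGANTCA, the TATA box TATAAA and the SP1 box GGGCGG, each on both strands. No match of one motif overlapped another in these 2 windows.
Ltbp2, chr12:84876492-84876741, minus strand: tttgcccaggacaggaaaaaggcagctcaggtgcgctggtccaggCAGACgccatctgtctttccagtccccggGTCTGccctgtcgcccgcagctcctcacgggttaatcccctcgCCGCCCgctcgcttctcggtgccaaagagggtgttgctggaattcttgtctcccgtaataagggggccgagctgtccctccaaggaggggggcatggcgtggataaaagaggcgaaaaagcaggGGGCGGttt
Tgfb2, chr1:186705990-186706239, minus strand: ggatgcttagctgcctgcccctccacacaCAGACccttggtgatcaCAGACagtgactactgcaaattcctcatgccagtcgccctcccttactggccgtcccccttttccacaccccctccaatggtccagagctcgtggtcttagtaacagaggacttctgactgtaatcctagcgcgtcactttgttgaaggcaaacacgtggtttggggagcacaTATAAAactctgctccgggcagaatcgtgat

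The Ltbp2 window held CAGAC on each strand, 205 and 176 bases before the start, and GGGCGG matches at 133 and 9 bases. The Tgfb2 window held 2 matches to CAGAC, at 221 and 204 bases, and TATAAA at 31 bases. Neither held TGANTCA. Of 32851 windows of this length, 42.2% held CAGAC, 6.75% TGANTCA, 12.4% TATAAA and 32.7% GGGCGG. The Tgfb1 window differed from that of Tgfb2 in holding 5 GGGCGG matches and none of the other 3 motifs. The 3 windows of Ltbp4 held 3, 5 and 7 GGGCGG matches and no CAGAC. Those with 5 and 7 matches lie at chr7:27333649-27333898 and chr7:27333664-27333913, inside the GENCODE gene. These windows overlap, and the 5 matches are among the 7. The core of the SMAD-binding box had 1 and 2 matches in the 2 windows of Ltbp1, which was not called under the diet. Among genes called higher under the diet, it had 1 match in the Ltbp3 window and 0 in those of Fbn1 and Tgfb1. Its presence therefore did not separate called from uncalled genes. These are matches of letters and not measured binding. GENCODE places the start of Ltbp2 further upstream than RefSeq does, so the 3′ end of the Ltbp2 window, with the GGGCGG nearest the start, lies inside the GENCODE gene.

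All 3 ligand genes rose under the high-fat diet. Tgfb1, the ligand most widely made by blood and stromal cells, lies on GRCm38 chromosome 7 from 25687002 to 25705077 on the plus strand. The ND AAV-CON libraries, in replicate order, held 21.0, 20.8 and 21.7 CPM, the HFD AAV-CON libraries 37.7, 30.4 and 35.8 CPM and the HFD AAV-BCKDK libraries 19.4, 20.4 and 24.3 CPM. Every HFD AAV-CON library was above every other library. Its log2 change was 0.71 under the diet (SE 0.11, adjusted p = 0.0016) and -0.70 with the vector (SE 0.11, adjusted p = 0.0024). HFD AAV-BCKDK differed from ND AAV-CON by 0.013 (SE 0.11, adjusted p = 0.97).

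Tgfb2, a ligand important in heart valve and outflow tract development, lies on chromosome 1 from 186622792 to 186705989 on the minus strand. Levels were 6.94, 5.10 and 7.05 CPM in the ND AAV-CON libraries, 23.9, 9.80 and 18.9 CPM in those of HFD AAV-CON and, in those of HFD AAV-BCKDK, 7.17, 12.1 and 9.88 CPM. The HFD AAV-CON and HFD AAV-BCKDK ranges overlapped, and all 6 of these libraries were above the ND AAV-CON range. Its log2 change under the diet was 1.46 (SE 0.31, adjusted p = 0.0057). The vector value was -0.86 (SE 0.31), with an adjusted p of 0.0507 that lay just over the threshold. Over the alternatives that adjusted p ranged from 0.0025 to 0.20, and 6 of 23 called it. Without HFD AAV-CON replicate 2 the value was -1.12 (adjusted p = 0.0025), and without replicate 1 it was -0.54 (adjusted p = 0.20). HFD AAV-BCKDK differed from ND AAV-CON by 0.61 (SE 0.31, adjusted p = 0.37).

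Tgfb3, the isoform tied to palate closure and wound repair, lies on chromosome 12 from 86056745 to 86079041 on the minus strand. In replicates 1, 2 and 3 the ND AAV-CON libraries held 16.9, 15.9 and 15.7 CPM, the HFD AAV-CON libraries 58.7, 21.9 and 44.6 CPM and the HFD AAV-BCKDK libraries 16.6, 17.7 and 16.2 CPM. The HFD AAV-CON range was the higher one and was clear of the rest. Tgfb3 rose by 1.37 under the diet (SE 0.28, adjusted p = 0.0048) and fell by 1.31 with the vector (SE 0.28, adjusted p = 0.0080). Between HFD AAV-BCKDK and ND AAV-CON the difference was 0.059 (SE 0.28, adjusted p = 0.95).

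Among the latent binding proteins, Ltbp2 and Ltbp3 changed. With TMM scaling and all 9 libraries, Ltbp1 and Ltbp4 did not pass the test in any comparison. Ltbp2, unlike the other 3, does not bind the latent ligand and instead competes for sites on fibrillin. It lies on chromosome 12 from 84783212 to 84876532 on the minus strand. The ND AAV-CON libraries, in replicate order, held 4.37, 5.16 and 4.34 CPM, the HFD AAV-CON libraries 156, 22.1 and 106 CPM and the HFD AAV-BCKDK libraries 3.00, 5.16 and 3.61 CPM. The counts behind the HFD AAV-CON levels were 9711, 820 and 4454, and the highest library was 7.06 times the lowest. Even the lowest of them was above every library of the other groups. Ltbp2 was 20.5-fold higher under the diet (log2 4.36, SE 0.61, adjusted p = 0.0010) and 24.2-fold lower with the vector (log2 -4.60, SE 0.62, adjusted p = 0.0015). With any 1 library left out the diet value lay between 3.79 and 4.82 and the vector value between -5.04 and -4.01, the last without HFD AAV-CON replicate 1. HFD AAV-BCKDK differed from ND AAV-CON by -0.24 (SE 0.60, adjusted p = 0.89).

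Ltbp3, which is needed for secretion of latent ligand and for skeletal growth, lies on chromosome 19 from 5740904 to 5758532 on the plus strand. Levels were 26.8, 26.7 and 25.7 CPM in the ND AAV-CON libraries, 55.9, 30.02 and 45.1 CPM in those of HFD AAV-CON and, in those of HFD AAV-BCKDK, 24.5, 25.5 and 24.3 CPM. The HFD AAV-CON range was above both others. The log2 change was 0.73 under the diet (SE 0.18, adjusted p = 0.011) and -0.82 with the vector (SE 0.18, adjusted p = 0.0093). All 3 HFD AAV-BCKDK libraries were below the ND AAV-CON range, with a fitted value of -0.093 (SE 0.18, adjusted p = 0.85).

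Ltbp4, which guides elastin assembly through fibulins as well as binding latent TGF-β1, lies on chromosome 7 from 27305136 to 27337692 on the minus strand. In replicates 1, 2 and 3 the ND AAV-CON libraries held 337, 306 and 307 CPM, the HFD AAV-CON libraries 369, 337 and 349 CPM and the HFD AAV-BCKDK libraries 300.3, 310.5 and 297 CPM. The HFD AAV-CON libraries were all above the others, in the closest case at 337.1 against 336.9 CPM. The fitted values were 0.15 under the diet (SE 0.084, adjusted p = 0.17) and -0.22 with the vector (SE 0.084, adjusted p = 0.066). The vector value was called in 3 of 23 alternatives (adjusted p from 0.0035 to 0.20), among them the fit without HFD AAV-CON replicate 2 (-0.22, adjusted p = 0.044). Ltbp1, the prototype binder of latent TGF-β, lies on chromosome 17 from 75005568 to 75392512 on the plus strand. The ND AAV-CON libraries, in replicate order, held 39.9, 34.9 and 34.6 CPM, the HFD AAV-CON libraries 33.5, 29.0 and 36.8 CPM and the HFD AAV-BCKDK libraries 27.8, 28.9 and 32.5 CPM. The HFD AAV-BCKDK libraries were all below ND AAV-CON, with a fitted value of -0.29 (SE 0.11, adjusted p = 0.21). Its values under the diet and with the vector were -0.14 (SE 0.11, adjusted p = 0.32) and -0.15 (SE 0.11, adjusted p = 0.29). With total-count scaling, which moved the median of all genes to 0.40 under the diet and to -0.47 with the vector, the diet value of Ltbp1 turned to 0.27 (adjusted p = 0.20). Ltbp1 was then called with the vector (-0.62, adjusted p = 0.014), and Ltbp4 both under the diet (0.56, adjusted p = 0.0076) and with the vector (-0.68, adjusted p = 0.0035). Of the 10 genes, 9 were called higher under the diet and 9 lower with the vector on that scale.

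Fbn1 and Eln, the 2 structural genes of the elastic fibre, rose under the diet and fell with the vector. Fbn1 encodes fibrillin-1 and lies on chromosome 2 from 125300594 to 125507993 on the minus strand. Levels were 66.8, 76.8 and 55.0 CPM in the ND AAV-CON libraries, 218, 95.9 and 168 CPM in those of HFD AAV-CON and, in those of HFD AAV-BCKDK, 55.1, 57.4 and 64.5 CPM. No HFD AAV-CON library overlapped the others. The log2 change was 1.28 under the diet (SE 0.25, adjusted p = 0.0042) and -1.45 with the vector (SE 0.26, adjusted p = 0.0037), and it was -0.17 between HFD AAV-BCKDK and ND AAV-CON (SE 0.25, adjusted p = 0.81).

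Eln, which encodes the tropoelastin monomer, lies on chromosome 5 from 134702593 to 134747323 on the minus strand. In replicates 1, 2 and 3 the ND AAV-CON libraries held 35.3, 33.2 and 30.3 CPM, the HFD AAV-CON libraries 74.7, 32.7 and 57.3 CPM and the HFD AAV-BCKDK libraries 22.5, 30.8 and 26.3 CPM. HFD AAV-CON replicate 2 fell inside the ND AAV-CON range, and the HFD AAV-BCKDK range lay below HFD AAV-CON. Its diet value was 0.74 (SE 0.25, adjusted p = 0.038). That call was the least stable of the 8, with adjusted p from 0.00055 to 0.14 over the alternatives and 11 of 23 of them calling it. It was lost when ND AAV-CON replicate 1 (adjusted p = 0.073), 2 (0.091) or 3 (0.101) was left out, with HFD AAV-CON replicate 3 left out (0.097) and without HFD AAV-BCKDK replicate 3 (0.056). It was also lost without HFD AAV-CON replicate 1, where the value was 0.45 (adjusted p = 0.14). The fall with the vector was -1.05 (SE 0.25, adjusted p = 0.012), called in 22 of 23 alternatives. HFD AAV-BCKDK differed from ND AAV-CON by -0.31 (SE 0.25, adjusted p = 0.59).

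Bambi rose under the diet and was the only one of the 10 genes called between HFD AAV-BCKDK and ND AAV-CON. It encodes a truncated receptor that lacks a kinase domain and dampens TGF-β and BMP signalling, and is itself a TGF-β target in many cells. It lies on chromosome 18 from 3507923 to 3516404 on the plus strand. The ND AAV-CON libraries, in replicate order, held 8.72, 8.26 and 9.37 CPM, the HFD AAV-CON libraries 15.8, 20.1 and 18.4 CPM and the HFD AAV-BCKDK libraries 15.6, 30.9 and 25.1 CPM. Both high-fat groups were above the ND AAV-CON range in all 6 libraries, and they overlapped each other. It rose by 1.04 under the diet (SE 0.21, adjusted p = 0.0051). The value with the vector was 0.40 (SE 0.21, adjusted p = 0.15). It was called without HFD AAV-BCKDK replicate 1 (0.63, adjusted p = 0.017), turned to -0.037 with total-count scaling, and its adjusted p ranged from 0.017 to 0.89 over the alternatives. HFD AAV-BCKDK was 2.72-fold above ND AAV-CON (log2 1.44, SE 0.22, adjusted p = 0.014), and 18 of 23 alternatives called that difference. The call was lost when ND AAV-CON replicate 1 (adjusted p = 0.071), 2 (0.072) or 3 (0.052) was left out, or HFD AAV-BCKDK replicate 3 (0.055), where the log2 values were 1.40 to 1.49.

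The 3 HFD AAV-CON libraries did not carry these genes at one level. The highest library exceeded the lowest by more than 2-fold for 5 of the 10 genes, with a median of 2.07, against a median of 1.15 in ND AAV-CON. The median was 1.21 in HFD AAV-BCKDK, and no gene exceeded 2-fold in either of those groups. For Tgfb1, Tgfb2, Tgfb3, Ltbp2, Ltbp3, Ltbp4, Fbn1 and Eln the order was replicate 1, then 3, then 2. Bambi had the opposite order, with its lowest CPM in replicate 1. With total-count scaling Bambi stood at 22.3, 20.7 and 22.5 CPM in the 3 libraries, so that order depends on the scaling.

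Ratios between genes of one library do not depend on how libraries are scaled, and 7 ratios were compared in 21 exact two-sided permutation tests. With 3 libraries against 3 the smallest p these tests can give is 0.1, which was 0.191 after Benjamini-Hochberg adjustment over the 21, so none could pass. Counts of Eln relative to Fbn1 were 0.529, 0.432 and 0.551 in the ND AAV-CON libraries, 0.343, 0.341 and 0.341 in those of HFD AAV-CON and 0.408, 0.536 and 0.407 in those of HFD AAV-BCKDK. The HFD AAV-CON libraries had the lowest ratios, without overlap. The log2 ratio differed by -0.55 under the diet and 0.39 with the vector (exact permutation p = 0.1 each). Eln itself ranged from 32.7 to 74.7 CPM in these libraries.

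Ltbp2 was higher relative to Ltbp4 in HFD AAV-CON than in the other groups. There were 0.013, 0.017 and 0.014 Ltbp2 counts per Ltbp4 count in the ND AAV-CON libraries, 0.422, 0.065 and 0.304 in those of HFD AAV-CON and 0.010, 0.017 and 0.012 in those of HFD AAV-BCKDK. The log2 difference was 3.799 under the diet and -4.00 with the vector (exact permutation p = 0.1 each), and the groups did not overlap. Ltbp3 relative to Ltbp4 differed by 0.53 under the diet and -0.56 with the vector (exact permutation p = 0.1 each). Among the ligands, Tgfb2 relative to Tgfb1 was 0.331, 0.245 and 0.324 in the ND AAV-CON libraries, 0.634, 0.322 and 0.528 in those of HFD AAV-CON and 0.370, 0.591 and 0.407 in those of HFD AAV-BCKDK. HFD AAV-BCKDK was above ND AAV-CON without overlap (log2 difference 0.59, exact permutation p = 0.1), and the other pairs of groups overlapped. Tgfb3 relative to Tgfb1 overlapped between all groups.

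**Figure D3:**
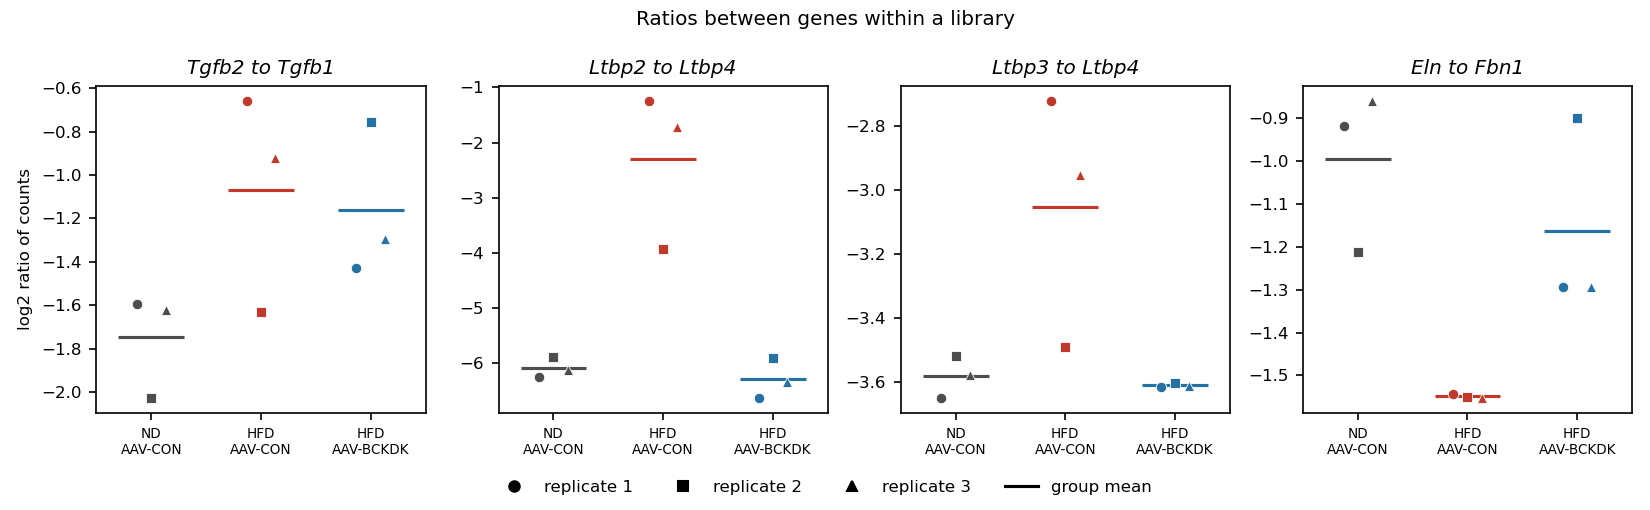
Log2 ratio of the counts of 2 genes in each library, with 1 symbol per replicate and a line at the group mean. The 3 HFD AAV-CON libraries share an Eln to Fbn1 ratio of 0.341 to 0.343 before the log, and their Ltbp2 to Ltbp4 ratio lies above that of the other 6 libraries.

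The genes whose level most resembled that of Ltbp2 over the 9 libraries were Fndc1, Serpinf1 and the collagen gene Col1a2, with Pearson r of 0.997, 0.997 and 0.995 in log2 CPM. For Tgfb2 they were Spidr, Spcs3 and Shc2 (0.990, 0.9865 and 0.976), and for Eln they were Sesn3, Dpysl3 and Stard9 (0.984, 0.984 and 0.977). The likeness was ranked over 11399 genes. It describes libraries that fall into groups, with HFD AAV-CON far from the others.

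Other genes of the pathway were counted from 7 lists. Under the diet 22.7% of all genes tested were called higher and 20.6% lower (median -0.0018). With the vector these shares were 17.3% and 20.9% (median -0.010). Between HFD AAV-BCKDK and ND AAV-CON they were 1.18% and 1.27%. A count near these shares is not read as a result about its list. Some genes are in more than 1 list or also among the cell markers, such as Timp1, Lox, Mmp2, Mmp14 and Col1a1. The lists are therefore not separate evidence. Receptors and Smads, which carry the signal to the nucleus, gave 5 genes higher, 2 lower and 5 not called of 12 under the diet (median 0.26), and 1 higher, 3 lower and 8 not called with the vector (median -0.19). Tgfbr1, the signalling type I receptor, rose by 1.74 under the diet (SE 0.27) and fell by 1.46 with the vector (SE 0.26). The type II receptor Tgfbr2, which binds the ligand, changed by 0.89 (SE 0.14) and -0.69 (SE 0.14), and the signal transducer Smad2 by 0.495 (SE 0.097) and -0.39 (SE 0.097). The co-receptor Tgfbr3, which presents TGF-β2, went the other way, by -0.43 under the diet (SE 0.095) and 0.48 with the vector (SE 0.095). With total-count scaling no gene of this list was called lower under the diet or higher with the vector, and 9 of 12 were called in the other direction in each. The vector counts were 3 higher and 5 lower without HFD AAV-CON replicate 2. They were 1 and 2 without replicate 3, where the diet counts were 4 and 1.

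Genes that release or anchor the latent ligand gave 10 higher and 1 lower of 16 under the diet (median 0.65), and 1 higher and 10 lower with the vector (median -0.69). The gene that went against the rest was Itgb6, an epithelial integrin subunit that activates latent TGF-β, at -0.90 under the diet (SE 0.22) and 0.83 with the vector (SE 0.22). It was chosen here after its values were seen, and its vector call was lost without HFD AAV-CON replicate 1 or 3. Thbs1, a matricellular activator of latent TGF-β, was at 13.5 to 16.6 CPM in the ND AAV-CON libraries, at 174 to 228 in those of HFD AAV-CON and at 24.2 to 40.7 in those of HFD AAV-BCKDK. Its change with the vector was -2.74 (SE 0.20), and HFD AAV-BCKDK stayed above ND AAV-CON by 1.05 (SE 0.20, adjusted p = 0.030), the only gene of this list called in that comparison. No gene of the list was called there without HFD AAV-CON replicate 3 or with total-count scaling. Leaving out replicate 3 gave 7 higher and 1 lower under the diet and 7 lower with the vector. The membrane protease Mmp14 changed by 1.59 (SE 0.24) under the diet and -1.53 (SE 0.24) with the vector. The gelatinase Mmp2 changed by 1.36 (SE 0.23) and -1.34 (SE 0.23). Nrros, which anchors latent TGF-β1 on macrophages and microglia, changed by 1.39 (SE 0.24) and -1.47 (SE 0.24).

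Inhibitors of the pathway gave 10 higher and none lower of 15 tested under the diet (median 0.53), and none higher and 8 lower with the vector (median -0.52). The ubiquitin ligase Smurf2, named after its values were seen, was the 1 gene called between HFD AAV-BCKDK and ND AAV-CON, at 0.47 (SE 0.076, adjusted p = 0.018), and it was not called with total-count scaling or the replicate block. With HFD AAV-CON replicate 3 left out, 9 inhibitors were higher under the diet and 7 lower with the vector. Ski, a repressor of Smad target genes, changed by 0.53 (SE 0.069) under the diet and -0.39 (SE 0.069) with the vector. The pathway inhibitor Pmepa1 changed by 1.35 (SE 0.19) and -0.87 (SE 0.18), and the Smad corepressor Tgif1 by 1.72 (SE 0.26) and -1.46 (SE 0.26). The proteoglycan Bgn, which binds TGF-β, changed by 1.70 (SE 0.29) and -1.69 (SE 0.29). Fmod, a related proteoglycan, fell by 5.55 with the vector (SE 0.98) from 3.90 to 67.4 CPM in HFD AAV-CON.

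Genes known to respond to TGF-β gave 17 higher and 1 lower of 21 tested under the diet (median 1.88), and none higher and 16 lower with the vector (median -1.93). The lower gene was Acta2, smooth muscle actin, at -0.38 (SE 0.099), named after its values were seen and not called lower with total-count scaling. These counts were the same without HFD AAV-CON replicate 3. The protease inhibitor Timp1 changed by 4.29 (SE 0.45) and -3.34 (SE 0.43), the collagen gene Col1a1 by 2.28 (SE 0.27) and -1.93 (SE 0.27), and the transcription factor Junb by 1.304 (SE 0.17) and -1.39 (SE 0.17). The matrix glycoprotein Tnc changed by -4.92 with the vector (SE 0.62). Several of these genes also respond to other signals.

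Genes of elastic fibre assembly gave 14 higher and 1 lower of 24 under the diet (median 0.80), and none higher and 15 lower with the vector (median -0.80). The lower gene was Emilin2 at -0.29 (SE 0.082), named after its values were seen and not called without HFD AAV-CON replicate 1 or 3. None of the 24 was called between HFD AAV-BCKDK and ND AAV-CON. Lox, which cross-links elastin and collagen, was at 7.15 to 8.21 CPM in the ND AAV-CON libraries, at 18.4 to 85.1 in those of HFD AAV-CON and at 7.31 to 7.75 in those of HFD AAV-BCKDK, with changes of 2.86 (SE 0.44) and -2.87 (SE 0.45). The related oxidase Loxl2 changed by 1.57 (SE 0.19) and -1.26 (SE 0.19). Emilin1, a glycoprotein of the elastin and microfibril interface that restrains TGF-β processing, changed by 1.36 (SE 0.16) and -1.09 (SE 0.16). Vcan, a proteoglycan that binds fibrillin, changed by 1.85 (SE 0.27) and -1.37 (SE 0.27). Leaving out HFD AAV-CON replicate 3 gave 12 higher under the diet and 10 lower with the vector.

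Proteases and inhibitors of elastin breakdown gave 11 higher and 2 lower of 15 tested under the diet (median 0.69), and 1 higher and 10 lower with the vector (median -0.82). With HFD AAV-CON replicate 3 left out these were 8 higher and 1 lower, and 1 higher and 8 lower. Ctss, an elastin-degrading cathepsin of macrophages, was at 26.3 to 77.5 CPM in the ND AAV-CON libraries, at 278 to 472 in those of HFD AAV-CON and at 26.7 to 44.5 in those of HFD AAV-BCKDK. The lysosomal protease Ctsb changed by 0.65 (SE 0.095) and -0.68 (SE 0.095). The list of other TGF-β family ligands was more mixed. It gave 6 higher, 1 lower and 8 not called of 15 under the diet (median 0.11). With the vector it gave 2 higher, 4 lower and 9 not called (median -0.043). Over all genes tested 43.3% and 38.2% were called in either direction in these comparisons. Bmp1 in this list encodes a protease and not a ligand, and it was called higher under the diet and lower with the vector. The stress cytokine Gdf15 changed by -1.92 with the vector (SE 0.46) and stayed above ND AAV-CON by 2.48 (SE 0.52, adjusted p = 0.044). The activin subunit Inhba rose by 1.93 under the diet (SE 0.37) with a vector value of -0.545 (SE 0.35, adjusted p = 0.24). Inhbb changed by 1.02 (SE 0.20) and -1.02 (SE 0.20), and Gdf6 fell by 1.79 with the vector (SE 0.45). Mstn, the muscle growth inhibitor myostatin, named after its values were seen, was above ND AAV-CON in HFD AAV-BCKDK by 3.06 (SE 0.53, adjusted p = 0.023). Neither Gdf15 nor Mstn was called in that comparison without HFD AAV-CON replicate 3 or with the replicate block, and total-count scaling called 1 gene of the list. Without HFD AAV-CON replicate 1 the vector count of this list was 1 higher and 2 lower. Without replicate 3 it was none higher and 3 lower, with 5 higher and none lower under the diet.

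**Figure D4:**
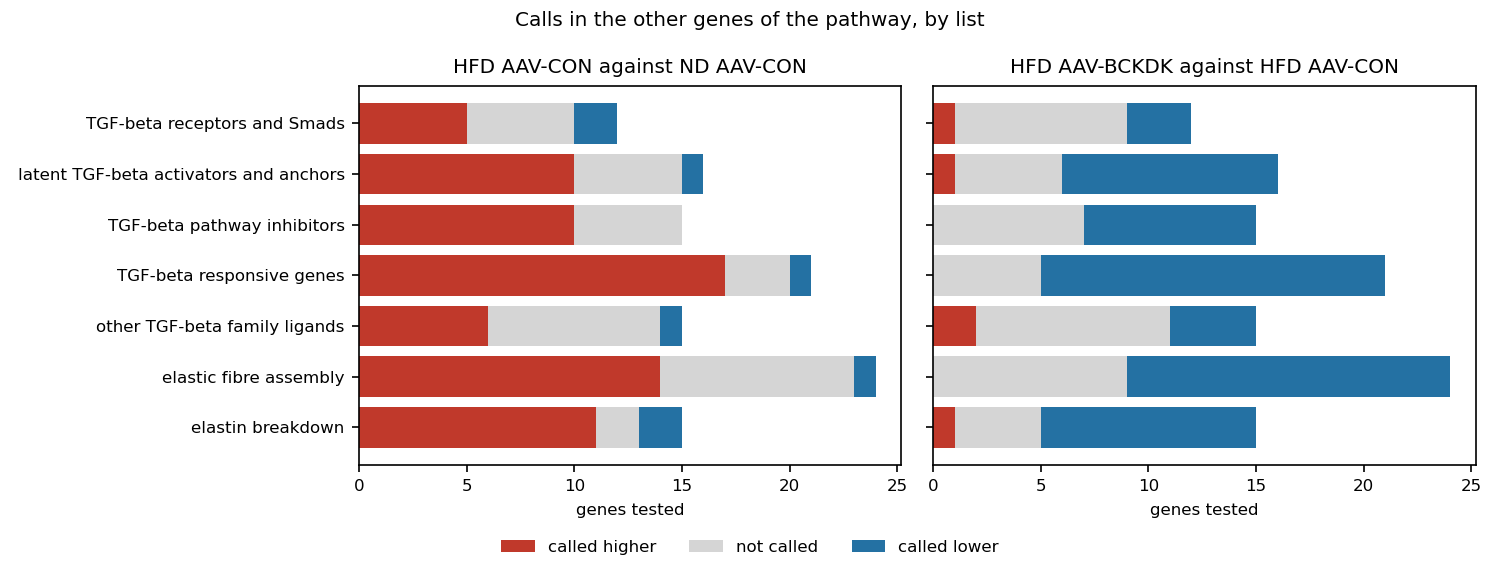
Number of genes called higher, not called and called lower at an adjusted p under 0.05 in each of 7 lists of other pathway genes, for the diet and for the vector. The lists of TGF-β responsive and elastic fibre assembly genes hold 17 and 14 calls higher under the diet and 16 and 15 calls lower with the vector.

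Markers of several cell types moved with the same groups, and their part in these results was not tested. Over all genes tested 22.7% were called higher and 20.6% lower under the diet, and 17.3% and 20.9% with the vector. A marker count near these shares is not read as a result about its cell type. Fibroblast markers were called higher under the diet in 13 of 16 cases and lower with the vector in 14 of 16. Their summed level was 2947 to 3039 CPM in the ND AAV-CON libraries and 2729 to 3033 CPM in those of HFD AAV-BCKDK. In replicates 1, 2 and 3 of HFD AAV-CON it was 6928, 4106 and 5815 CPM. The order of the HFD AAV-CON libraries was that of the 8 genes named above, and no fibroblast marker was at 0. Sums of macrophage, T and NK cell, endocardium and valve, and large artery wall markers had the same order. Sums of cardiomyocyte, endothelial, smooth muscle and platelet markers had the reverse order, so the order is not particular to fibroblast markers. Without HFD AAV-CON replicate 3 the counts were 9 and 8 of 16, and without replicate 1 the vector count was 9. Macrophage and monocyte markers were higher in 14 of 15 cases under the diet and lower in 14 of 15 with the vector, with sums of 765 to 1042, 2089 to 3400 and 596 to 785 CPM in the 3 groups. T and NK cell markers were higher and then lower in 9 of 9 cases, with sums of 2.57 to 46.2, 113 to 211 and 3.38 to 14.5 CPM, and 6 were higher without HFD AAV-CON replicate 3.

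Endocardium and valve markers, of which 9 of 12 were tested, gave 5 higher and 2 lower under the diet and 2 higher and 5 lower with the vector. Their sums were 108 to 117, 167 to 830 and 94.4 to 104 CPM, and Hapln1 and Tnmd were at 0 in all ND AAV-CON and HFD AAV-BCKDK libraries. Markers of the large artery wall, where elastin is abundant, gave 2 higher and 1 lower of 7 under the diet and 2 lower with the vector, with sums of 81.0 to 89.7, 96.4 to 199 and 79.9 to 83.7 CPM. Over all genes tested 20.6% were called lower under the diet and 17.3% higher with the vector. Beside these shares, smooth muscle and pericyte markers gave 4 lower of 14 under the diet and 3 higher with the vector. The sums of the smooth muscle and pericyte markers were 2949 to 3144, 2258 to 2603 and 2658 to 2833 CPM. With total-count scaling these markers gave 3 higher and 2 lower under the diet and 1 higher and 6 lower with the vector. Without HFD AAV-CON replicate 3 none was higher with the vector, against 5 without replicate 2. Endothelial markers gave 9 lower of 14 and 10 higher of 14, with sums of 2645 to 2691, 1328 to 2075 and 2257 to 2707 CPM. Their vector count was 6 without HFD AAV-CON replicate 1 or 3, and their diet count was 6 without replicate 3. With total-count scaling they gave 1 higher and 4 lower under the diet and 2 higher with the vector.

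Platelet markers, of which 5 of 10 were tested, gave 1 lower under the diet and none called with the vector, and Gp6 was at 0 in HFD AAV-BCKDK. Their sums were 16.2 to 19.2, 11.3 to 19.2 and 14.5 to 21.8 CPM, so these markers were low in every group. Cardiomyocyte markers, which define the labelled tissue, summed to 57220 to 60340 CPM in ND AAV-CON, 28170 to 46940 in HFD AAV-CON and 51570 to 56420 in HFD AAV-BCKDK, and none was at 0. They gave 1 higher and 10 lower of 14 under the diet and 8 higher and 1 lower with the vector. Without HFD AAV-CON replicate 3 these became 1 higher and 2 lower, and none higher and 1 lower, and without replicate 2 there were 13 higher with the vector.

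The counting of strand is not given in the sources used here, so reads of genes on opposite strands that share exons cannot be told apart. Annotated exons of Fbn1 share 2442 bases (20.1%) with Gm9913, and those of Ltbp2 share 764 bases (9.34%) with D030025P21Rik. Tgfb3 shares 257 bases (7.60%) with Gm48008 and 163 bases (4.82%) with Gm37804. Eln shares 267 bases (3.30%) with Gm30003, and Tgfb2 shares 124 bases (2.14%) with Gm29491.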

How the data were processed

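Libraries were made from left ventricular RNA with an mRNA kit, per the labels' protocols, and HISAT2 2.0.5 and mm10 are named per the submitters' processing notes. The values the authors deposited are raw read counts per gene. No source used here names the counting tool, the annotation or the strand setting. The 4142 entries without a gene name, between 1.02% and 6.01% of a library's counts, were left out. Counts of 22036 annotated genes were filtered with filterByExpr, scaled with TMM and fitted in edgeR 4.0.16 (R 4.3.3) with 1 coefficient per group over all 9 libraries. Quasi-likelihood p-values were adjusted with Benjamini-Hochberg over 14160 genes at 0.05. SE comes from the F statistic. Every adjusted p is from that edgeR test unless another tool is named. Ratios used counts plus 0.5. Coordinates and exon lengths are from GENCODE M21 (GRCm38, the build called mm10).

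Each library counts as 1 replicate. The counts of all replicate pairs differed by more than sampling noise, so none is a library deposited again, but that does not test whether one was mixed from others. In simulated data for the diet comparison over 14160 genes, 64.1% of genes changed 2-fold and 87.5% changed 4-fold were recovered, and 6.6% of the calls were false. Over all its runs 304 genes were changed 2-fold and 279 were changed 4-fold. Up and down were equally likely, and both groups had the same spread. In the data 43.3% of genes were called under the diet, and the HFD AAV-CON libraries differed more from each other. These rates therefore need not hold for the data. The genes, lists and alternatives were chosen with earlier results of these data known. From each list the text names up to 3 called genes with the smallest p under the diet and up to 3 with the vector. Some genes that this rule picks are not reported here. Alternatives were other scalings, filters, tools (DESeq2 1.42.0, limma-voom 3.58.1), thresholds, a replicate block, keeping the unnamed entries, leaving out mitochondrially encoded genes, and leaving out each library.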

Additional observations from a re-analysis of the deposited data

Results flagged for a closer look

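Entries without a gene name, which are left out of the comparisons except in 1 alternative, took a larger share of counts in HFD AAV-BCKDK than in any ND AAV-CON library, where the highest share was 5.80%. The shares were 6.0%, 6.01% and 5.88% in HFD AAV-BCKDK replicates 1, 2 and 3. HFD AAV-CON replicate 3 held 1.02%, the lowest of the 9 libraries.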

How the results depend on the processing

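Of 270 values of single genes with 1 library left out, 256 kept their direction and call, and of 420 under other alternatives 394 did. Under the diet 5 of the 10 genes were called with a 2-fold minimum, and over all genes 3254 were called at a false discovery rate of 0.01 and 1986 with the 2-fold minimum, against 6134. With the vector these were 2058 and 1664, against 5410. Between HFD AAV-BCKDK and ND AAV-CON, 347 genes were called, and 136 with total-count scaling, 879 with DESeq2, 873 with only the 2 groups compared, 64 at 0.01 (Bambi then not called, leaving 0 of the 10; 2405 genes had an unadjusted p under 0.05, and DESeq2 at 0.05 called 1 of the 10) and 83 with the 2-fold minimum. Total-count scaling split the calls into 5986 higher and 934 lower under the diet (3215 and 2919 with TMM) and 398 higher and 6867 lower with the vector (2444 and 2966). It reversed Ltbp1 under the diet (0.27), Bambi with the vector (-0.037) and Tgfb1 between HFD AAV-BCKDK and ND AAV-CON (-0.041), the last also with upper-quartile factors (-0.00065). These are uncalled values, and the cause was not tested. With the unnamed entries kept, 5713, 4936 and 243 genes were called in the 3 comparisons, and Eln was not called under the diet (adjusted p = 0.0507).

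With 1 library left out, genes called ranged from 4050 (without HFD AAV-CON replicate 3) to 7325 under the diet, from 2847 (without the same library) to 6978 with the vector, and from 43 (without ND AAV-CON replicate 1) to 744 (without HFD AAV-CON replicate 2) between HFD AAV-BCKDK and ND AAV-CON. The vector count also moved by over 1.5 times without HFD AAV-CON replicate 1 (3434) or HFD AAV-BCKDK replicate 1 (3194) or 2 (3403), and the last comparison's count without any single library other than HFD AAV-CON replicate 1 (479). In that comparison 0 to 1 of the 10 genes were called and Tgfb1 ranged from -0.092 to 0.078. Log2 ratios that changed sign were Tgfb2 to Tgfb1 with the vector (-0.37 to 0.11) and, between HFD AAV-BCKDK and ND AAV-CON, Tgfb3 to Tgfb1 (-0.011 to 0.18), Ltbp3 to Ltbp4 (-0.061 to 0.0030), Ltbp2 to Ltbp1 (-0.21 to 0.15) and Ltbp2 to Fbn1 (-0.35 to 0.014). The cause was not tested.

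The replicate block gave 7, 6 and 1 of the 10 genes in the 3 comparisons, with Eln not called under the diet (adjusted p = 0.068), and 107 genes between HFD AAV-BCKDK and ND AAV-CON. Same-numbered samples share only a number: their deviations from the group means correlated between -0.22 and 0.19, over 0.1 in 2 of 9 pairs, and not every sample correlated best with its own number. The lowest count of these genes in any library was 88, and the effect of depth was not tested.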
